A study of Liolaemus parthenos with 3 samples.

Results

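RTE clade elements are long interspersed elements (LINEs), retrotransposons without long terminal repeats that were here counted in RNA of 3 tissues (brain, ovary, liver) from 1 adult animal of the parthenogenetic lizard Liolaemus parthenos. The members were chosen by name: every subfamily whose name in the deposited tables starts with the RTE path of the LINE class, which gave 3 of the 31 subfamilies of the count table (BovB, RTEX and a row named RTE). By the same rule, 9 of the 480 transcripts in the deposited quantification files were members, and 1537 of the 19207 assembled transcripts in the table of element names. Each tissue was sequenced as 1 library of total RNA without strand information, and no tissue was treated. The stated purpose of the series was to try out a pipeline that explores transposable element expression from RNA-seq without a reference genome, by comparing these tissues.

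RTE elements encode an endonuclease and a reverse transcriptase, and copy themselves into the genome through an RNA intermediate, so that full-length RNA is a first step of their movement. BovB is the best known lineage, named after bovines, abundant in ruminants and in lizards and snakes, and known for its spread between distant animals by horizontal transfer. RTEX is a lineage placed beside RTE in repeat classifications. RNA that carries such a sequence can also come from a gene that holds an old, inactive copy. With libraries that keep no strand, element and gene transcripts were not separated, and their part in the values below was not tested.

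The Brain column of the table summed to 5468656 reads, the Ovary column to 1143616 and the Liver column to 1717904. SINE3, a short interspersed element, took 91.4%, 77.6% and 84.3% of these. The table columns carry tissue names, while the sample records attach the quantification file named for the liver to the ovary sample and the one named for the ovary to the liver sample. The files are called here the brain file, the ovary-record file and the liver-record file, and they held far fewer reads, 16405, 4651 and 10644. Table values are therefore given by column and file values by record, and a statement that sets brain apart from both others does not depend on which of these is which. Each tissue being 1 library, the tissues could not be tested against each other: a difference describes these libraries, and 95% intervals cover counting error alone. In whole tissue, fewer cells of a type and less RNA per cell cannot be told apart.

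As a share of LINE reads the clade was small and varied little, and its make-up differed between the libraries. RTE elements took 6.16% of LINE reads in the Brain column (exact 95% interval 6.06 to 6.25), 5.35% in the Ovary column (5.21 to 5.48) and 5.95% in the Liver column (5.83 to 6.07). The highest share was 1.15 times the lowest. Among the 6 groups of LINE rows in the table, one of them without a finer name, RTE ranked 3 in every column, after the CR1 group (CR1 and L2) and L1. The CR1 group made up most of this denominator, with 77.4%, 71.4% and 86.4% of LINE reads in the Brain, Ovary and Liver columns. The highest over the lowest share was 1.21 for the CR1 group, 1.59 for the R2 group and 2.32 for the group without a finer name. It was 3.41 for L1 and 3.62 for the I group. Within the clade, RTEX made up 53.1% of the reads of the Brain column and 57.6% of the Ovary column, but 79.0% of the Liver column.

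The Brain column had 7457 estimated RTEX reads, the Ovary column 3194 and the Liver column 7060. Its share of all reads was 0.136% in the Brain (0.133 to 0.139), 0.279% in the Ovary (0.270 to 0.289) and 0.411% in the Liver column (0.401 to 0.421). The intervals did not overlap, and the Liver column was the highest. Of the reads outside SINE3, RTEX took 1.59% (Brain column), 1.25% (Ovary column) and 2.62% (Liver column), so that the order of the Brain and Ovary columns depended on the denominator while the Liver column stayed on top. RTEX ranked 4 of the 15 LINE rows in all 3 columns.

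For BovB the Brain column had 6568 estimated reads, the Ovary column 2331 and the Liver column 1868. Its share of all reads was 0.120% in the Brain (0.117 to 0.123), 0.204% in the Ovary (0.196 to 0.212) and 0.109% in the Liver column (0.104 to 0.114). The Ovary column was the highest here, and the Brain and Liver columns lay close together. Of the reads outside SINE3, BovB took 1.40% (Brain column), 0.912% (Ovary column) and 0.692% (Liver column), which put the Brain column first. It ranked 5 of the 15 LINE rows in every column, next after RTEX.

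The row named RTE, which carries the same name as the clade, was rare: the Brain column had 30 reads, the Ovary column 16 and the Liver column 6. Its share of all reads was 0.000549% in the Brain (0.000370 to 0.000783), 0.00140% in the Ovary (0.000800 to 0.00227) and 0.000349% in the Liver column (0.000128 to 0.000760). The intervals of the Brain and Liver columns overlapped, and the interval of their ratio included 1 (0.643 to 4.62). It lay above 1 outside SINE3 (1.18 to 8.46) and for LINE reads (1.35 to 9.67), so whether these columns were told apart depended on the denominator. It made up 0.213%, 0.289% and 0.0672% of the clade in the Brain, Ovary and Liver columns.

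**Figure D1:**
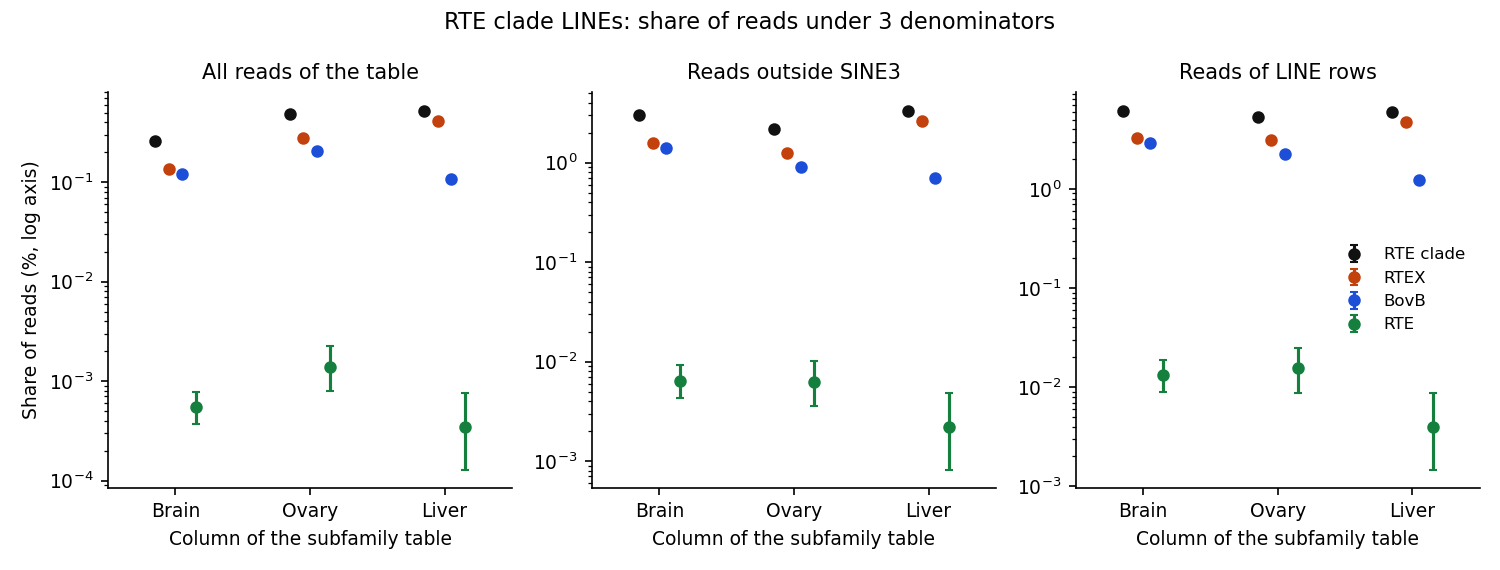
Share of reads (%, log axis) of the RTE clade and its 3 members in the Brain, Ovary and Liver columns of the count table, with all reads, reads outside SINE3 or reads of LINE rows as the denominator; points are single libraries and bars exact 95% intervals of counting error. The clade lies between 5.35% and 6.16% of LINE reads in all 3 columns, while BovB is lowest and RTEX highest in the Liver column of that panel at the right.

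The first comparison set brain against ovary. The clade held 0.257% of all reads in the Brain column (0.253 to 0.261) and 0.485% in the Ovary column (0.472 to 0.497), a 1.89-fold lower share in brain (1.83 to 1.94). The rule for a call asked for shares at least 2-fold apart, at least 20 reads over the pair and an interval of the ratio that leaves out 1. By this rule 2 of the 3 members were lower in brain, RTEX 2.05-fold (1.96 to 2.14) and the row named RTE 2.55-fold (1.30 to 4.83), and 0 were higher. The rule called 53.6% of the 28 subfamilies with enough reads as lower and 3.57% as higher. The members' median log2 ratio of -1.03 lay beside -1.04 over all 28 and -0.72 over the 11 other LINE rows. BovB was 1.70-fold lower (1.62 to 1.78).

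These directions turned when SINE3 was left out of the total. Outside SINE3 the clade was 1.38-fold higher in brain (1.34 to 1.43), and of LINE reads it was 1.15-fold higher (1.12 to 1.19). BovB was then 1.54-fold and 1.28-fold higher, and RTEX 1.27-fold and 1.06-fold higher. With either denominator 0 of the 3 members passed the rule, where the background was 21.4% higher and 17.9% lower outside SINE3, and 17.9% each way for LINE reads. With either TMM or median-of-ratios factors the background was 14.3% higher and 17.9% lower. The deposited log2 CPM has no intervals, so calls in it, here and below, used the fold and the reads alone. Its background was 11.1% higher and 22.2% lower of 27 subfamilies. Again 0 of the 3 members passed under any of these scalings. Between brain and ovary, no member kept its direction under every scaling tried.

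Between brain and liver the members parted. RTEX had a 3.01-fold lower share in brain (2.92 to 3.11), with the Liver column above the Brain column, while BovB was 1.10-fold higher (1.05 to 1.16) and the row named RTE 1.57-fold higher (0.643 to 4.62, an interval that includes 1). RTEX was the 1 member past the rule, against a background of 21.4% lower and 21.4% higher. Outside SINE3 RTEX was 1.65-fold lower and BovB 2.02-fold higher (1.92 to 2.13). There BovB and the row named RTE (2.88-fold, 1.18 to 8.46) passed the rule as higher, beside 67.9% of all subfamilies (3.57% were lower), and RTEX was within 2-fold. The same members were higher past the rule as shares of LINE reads, beside 75% of the subfamilies. With TMM and with median-of-ratios factors RTEX alone of the 3 was lower past the rule and 0 were higher, where the background was 21.4% lower and 10.7% higher. In the deposited log2 CPM 0 of the 3 passed, where 11.1% were lower and 7.41% higher. RTEX was lower in brain under all 6 scalings tried, with log2 ratios from -2.04 to -0.52. BovB was higher in 4 of them and lower with TMM and median-of-ratios factors.

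RTEX stood at the low end of the LINE order in this comparison. Its log2 ratio of brain over liver was the lowest of the 14 LINE rows with enough reads and the third lowest of 28 rows in all, an order that no division by a library total can change. With all reads RTEX was at -1.59, followed by CR1 at -1.44 and the LINE R4-Dong at -1.01. Both of these also passed the rule as lower. BovB was in place 5 of 14 from the lowest, and the row named RTE in place 11. In the authors' deposited log2 CPM, whose differences from the count table vary by row, RTEX was in place 3 of 14, with a difference of -0.97 between the Brain and Liver columns. The LINE rows Tx1 and CR1, just below it, were at -0.97 as well. The difference there was 0.50 for BovB and 0.71 for the row named RTE.

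**Figure D2:**
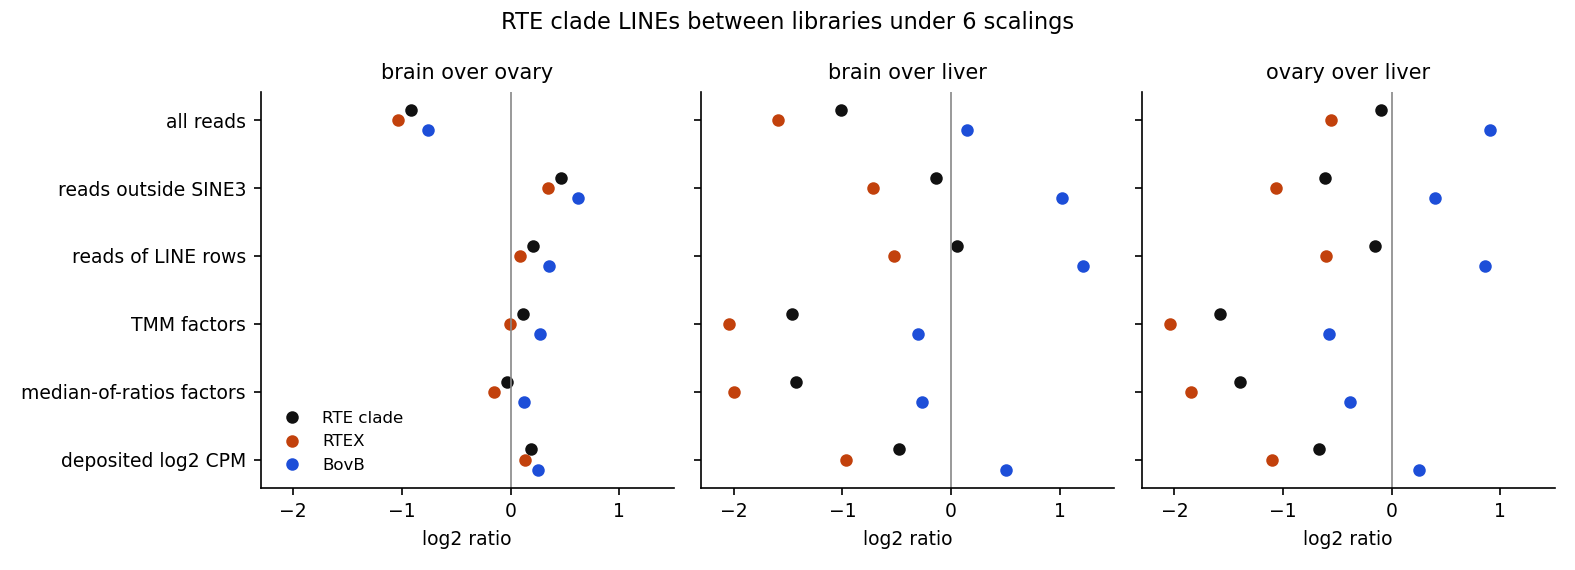
Log2 ratio for the RTE clade, RTEX and BovB in each pair of libraries, under 5 ways of scaling the count table and in the authors' deposited log2 CPM; each point is a ratio of single libraries. RTEX lies below 0 in every row of the panels with liver, and BovB lies to the right of RTEX in every row of all 3 panels. In each panel their distance is the same under the 5 scalings of the count table, since a scaling moves both by the same amount. Only the deposited log2 CPM could place them otherwise.

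With all reads BovB and RTEX also parted between ovary and liver. The clade as a whole was at 0.485% (Ovary column) and 0.520% (Liver column, 0.509 to 0.531), a 1.07-fold lower share in ovary (1.04 to 1.11). RTEX was 1.47-fold lower in the Ovary column (1.41 to 1.53) and BovB 1.87-fold higher (1.76 to 1.99). The row named RTE was 4.01-fold higher (1.49 to 12.5), on 16 reads of the Ovary column and 6 of the Liver column, and was the 1 member of the 3 past the rule. Of the 26 subfamilies with enough reads, 65.4% were called higher in ovary and 3.85% lower. Outside SINE3 the background was 50% higher and 7.69% lower, and RTEX joined as 2.09-fold lower (2.01 to 2.18). As shares of LINE reads 61.5% were higher and 3.85% lower, and the row named RTE was again the 1 member called. With TMM factors (23.1% each way), with median-of-ratios factors (26.9% higher, 19.2% lower) and in the deposited log2 CPM (23.1% and 19.2%), RTEX was the 1 member called, as lower. At a limit of 1.5-fold, where 73.1% of subfamilies were higher, BovB joined the row named RTE as higher. RTEX was lower in ovary under all 6 scalings, with log2 ratios from -2.04 to -0.56, and was the lowest of 13 LINE rows. BovB turned to lower in ovary with TMM factors (log2 ratio -0.57) and with median-of-ratios factors (-0.39), and was higher under the other 4. In the deposited log2 CPM RTEX was second lowest of the 13 LINE rows, after CR1, at -1.10 against -1.68. Which of these libraries is ovary and which is liver was taken from the column names.

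**Figure D3:**
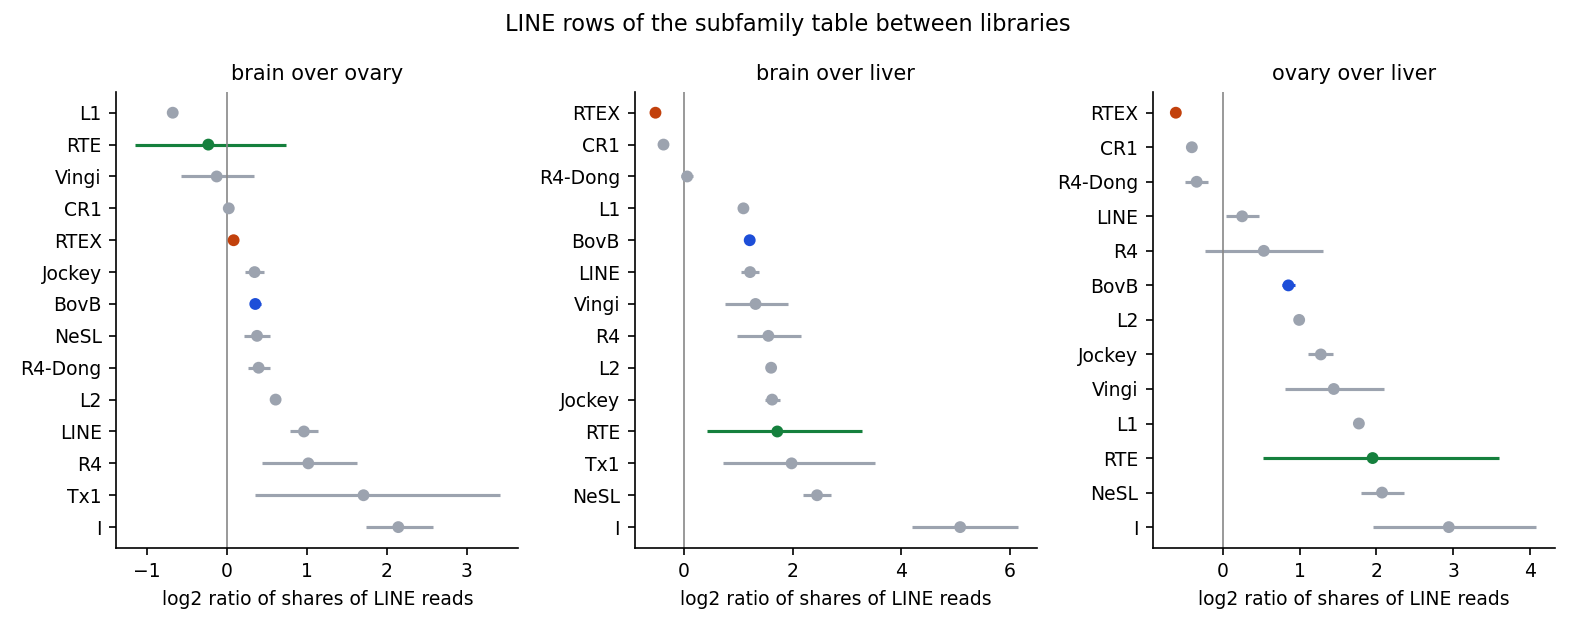
Log2 ratio of shares of LINE reads for each LINE row with at least 20 reads over the pair, sorted, with exact 95% intervals of counting error as lines; RTEX is orange, BovB blue, the row named RTE green and other LINE rows grey. RTEX is at the low end of both panels with liver, at -0.52 (brain over liver) and -0.61 (ovary over liver), while BovB is at 1.21 and 0.86.

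The balance of RTEX and BovB needs no scaling, since both are counted in the same library. For each BovB read the Brain column had 1.14 RTEX reads (1.10 to 1.17), the Ovary column 1.37 (1.30 to 1.45) and the Liver column 3.78 (3.59 to 3.98). The intervals were apart in every pair of columns. The ratio was 3.33-fold lower in brain than in liver (3.13 to 3.54), 2.76-fold lower in ovary than in liver (2.56 to 2.97) and 1.21-fold lower in brain than in ovary (1.13 to 1.29). The deposited log2 CPM put RTEX above BovB by 0.32 (Brain column), 0.44 (Ovary column) and 1.79 (Liver column).

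Such a distance was not unusual between subfamilies. Of the 55 pairs of the 11 LINE rows with at least 20 reads in every column, 21.8% were at least as far apart as RTEX and BovB in brain over liver, and 30.9% in ovary over liver. Over all 276 pairs of 24 subfamilies the shares were 33.7% and 50.7%. The pairs share rows, so these shares are a description.

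The subfamilies whose pattern was most like each member differed too. Likeness was the largest of the differences in log2 ratio over the 3 pairs of libraries, among 22 other subfamilies with at least 20 reads in each column. RTEX was nearest to CR1, with a largest difference of 0.21, then to R4-Dong (0.58), a LINE of the R2 group. BovB was nearest to Ngaro (0.037), a tyrosine recombinase retrotransposon, then to the LINEs L2 (0.39) and Jockey (0.42). BovB and RTEX themselves were 1.74 apart. The row named RTE was nearest to DIRS (0.42), on few reads. In the deposited log2 CPM the order was another. There CR1 was in place 4 for RTEX (0.58), behind R4-Dong (0.38), and ERV1, an endogenous retrovirus, was nearest (0.32). For BovB, Ngaro was in place 10 of 22 (0.96), behind Jockey (0.52) and L2 (0.67), and DIRS was nearest (0.52). The nearest subfamilies thus changed with the table used, and the distances rest on 3 libraries.

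**Figure D4:**
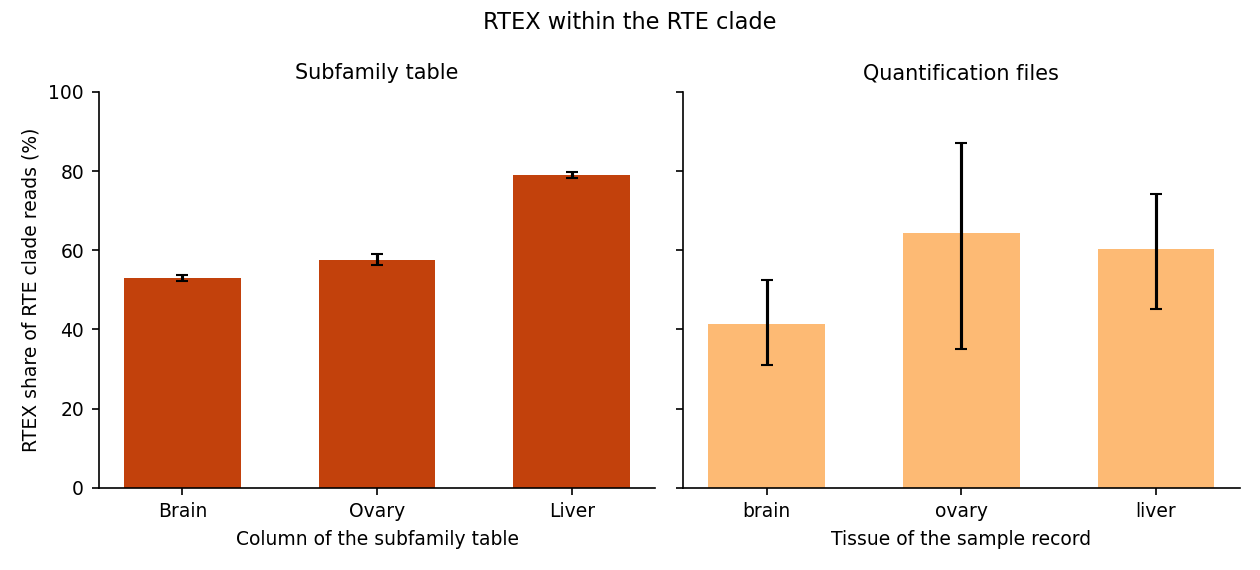
RTEX share of the RTE clade reads (%), in the columns of the count table on the left and in the quantification files by sample record on the right, with exact 95% intervals of counting error. In the table the Brain and Ovary columns stand at 53.1% and 57.6%, below 79.0% in the Liver column, and in the files the intervals of all 3 libraries overlap.

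The assembly held the clade in many pieces. The name table gave 1035 assembled transcripts to BovB, 495 to RTEX and 7 to the row named RTE, which ranked 5, 8 and 26 of 31 subfamilies, and the clade made up 8.002% of all named transcripts. A component here is the set of assembled transcripts that share a Trinity cluster number. BovB transcripts fell into 906 components, 10.2% of which held more than 1 BovB transcript, and RTEX transcripts into 334, of which 25.7% held several. Over all elements 18.7% of 13427 components held several transcripts. The largest RTEX component (TRINITY_DN50111_c0) had 9 transcripts and the largest BovB component (TRINITY_DN43898_c0) had 7.

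Components with mixed names were few. Of the 1247 components with an RTE name, 182 held several transcripts, and 0 of these had both BovB and RTEX. In 6 of them another element was named as well: CR1 beside RTEX in 2, L1 beside RTEX in 2, CR1 beside BovB in 1 and L1 beside BovB in 1. Over all elements, 14 of the 2512 components with several transcripts carried more than 1 element name. The RTE components were 6 of these 14 and 182 of the 2512, on few components. A mixed component counts for each group it names but once over all elements, so these counts are not made alike. Other groups were not compared, and no excess in RTE is read from these counts. The reads of the count table came to 15.1, 6.45 and 14.3 per named RTEX transcript in the Brain, Ovary and Liver columns, and to 6.35, 2.25 and 1.80 per named BovB transcript. The lengths behind the table are unknown, so these are reads per assembled piece and not levels.

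Of these pieces, 9 had values of their own, 5 of BovB and 4 of RTEX, and 0 of the row named RTE. Their lengths were 205 to 969 bases with a median of 325, against a median of 284 over all 480 transcripts and 278 over the 407 LINE transcripts, the longest of which had 7524. The 9 transcripts held 87 reads or 0.530% of the brain file (0.425 to 0.654), 14 reads or 0.301% of the ovary-record file (0.165 to 0.505) and 48 reads or 0.451% of the liver-record file (0.333 to 0.597). The intervals overlapped. By TPM, which is per length, the clade stood at 8295 in the brain file, 5357 in the ovary-record file and 10211 in the liver-record file.

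The longest RTE transcript was also the one with the most reads. This BovB transcript of 969 bases (TRINITY_DN32797_c1_g1_i3) had 35 reads in the brain file, 4 in the ovary-record file and 15 in the liver-record file, and its TPM was 948, 391 and 1190. These were 35 of 51, 4 of 5 and 15 of 19 BovB reads. Of all LINE transcripts, 19 were longer. Its share of reads was 2.48-fold higher in the brain file than in the ovary-record file (0.887 to 9.61) and 1.51-fold higher than in the liver-record file (0.806 to 2.98). Both intervals include 1.

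The other BovB transcripts were short and thinly covered. TRINITY_DN89986_c0_g1_i1, of 222 bases, had 2 reads in the brain file, 1 in the ovary-record file and 4 in the liver-record file. TRINITY_DN194200_c0_g1_i1, TRINITY_DN104427_c1_g1_i1 and TRINITY_DN108655_c2_g1_i2 had 6, 5 and 3 reads in the brain file and 0 in both other files. A count of 0, taken as 3 reads at most, allows a share of up to 0.0645% of the ovary-record file and 0.0282% of the liver-record file. No fold is given for them, since their brain counts are small as well.

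The RTEX component with the most reads over the libraries, 46, held a pair of transcripts of equal length. TRINITY_DN21868_c0_g1_i1 and TRINITY_DN21868_c0_g1_i2 each had 563 bases and belonged to 1 component, and reads were split between them in fractions. The first had 9.01 reads in the brain file, 1.49 in the ovary-record file and 13.5 in the liver-record file, and the second had 11.0, 1.51 and 9.53. As a component (TRINITY_DN21868_c0) they came to 20 reads in the brain file, 3 in the ovary-record file and 23 in the liver-record file. The share of the component was 1.77-fold lower in the brain file than in the liver-record file (0.931 to 3.40). It was 3.35-fold lower in the ovary-record file than in the liver-record file (1.01 to 17.4), which passed the rule, beside 28.3% of 46 components called lower and 34.8% called higher. Exchanging the names of these files would turn that direction.

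The remaining RTEX transcripts had too few reads for the rule. TRINITY_DN107318_c0_g1_i1, of 325 bases, had 12 reads in the brain file and 4 in each other file, with a TPM of 1704 in the brain, 1956 in the ovary-record and 1471 in the liver-record file. TRINITY_DN152030_c0_g1_i1, of 269 bases, had 4 reads in the brain file and 2 in each other file. None of the 9 transcripts passed the 2-fold rule in any pair of libraries. Enough reads for the rule were found for 1 of the 9 in brain over ovary, 3 in brain over liver and 0 in ovary over liver. Among all transcripts the rule called 33.1% of 118 as higher and 11% as lower in brain over ovary. The shares were 51.1% and 16.3% of 135 in brain over liver, and 34.4% each way of 61 in ovary over liver. By TPM, with no interval, the BovB transcript of 969 bases was past 2-fold as higher in brain over ovary, beside 27.1% higher and 11% lower. In brain over liver both RTEX transcripts of 563 bases were then lower, beside 25.9% higher and 23.7% lower.

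All 9 transcripts had reads in the brain file and 6 in each of the others, and the 3 seen in the brain file alone were BovB. Over all 480 transcripts, 445 had reads in the brain file (92.7%), 262 in the ovary-record file (54.6%) and 289 in the liver-record file (60.2%). How many of all 480 were seen in the brain file alone is not given here, so the 3 have no background. Thinned to the 4651 reads of the ovary-record file, 7.44 RTE transcripts would be expected in the brain file and 5.48 in the liver-record file, against the 6 found in the ovary-record file. Over all 480 transcripts the same thinning gave 374.6 in the brain file and 226.2 in the liver-record file, against 262 in the ovary-record file. The order of the files was thus the same over all transcripts.

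RTEX made up 41.4% of the clade's reads in the brain file (30.9 to 52.4), 64.3% in the ovary-record file (35.1 to 87.2) and 60.4% in the liver-record file (45.3 to 74.2). These 36, 9 and 29 RTEX reads stand beside 51, 5 and 19 BovB reads. In RTEX per BovB the brain file was 2.55-fold below the ovary-record file (0.692 to 10.4) and 2.16-fold below the liver-record file (0.994 to 4.74). Both intervals include 1, so a difference in balance was not detectable in these files, which for brain amount to 0.619% of the clade's table reads. By TPM, RTEX stood at 0.789 times BovB in the brain file, 2.79 times in the ovary-record file and 1.36 times in the liver-record file. The share of BovB was 2.89-fold higher in the brain than in the ovary-record file (1.16 to 9.28) and 1.74-fold higher than in the liver-record file (1.01 to 3.12), log2 ratios of 1.53 and 0.80. By TPM the log2 ratios of BovB were 1.72 and 0.10, so that by this measure the brain and liver-record files lay close together.

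**Figure D5:**
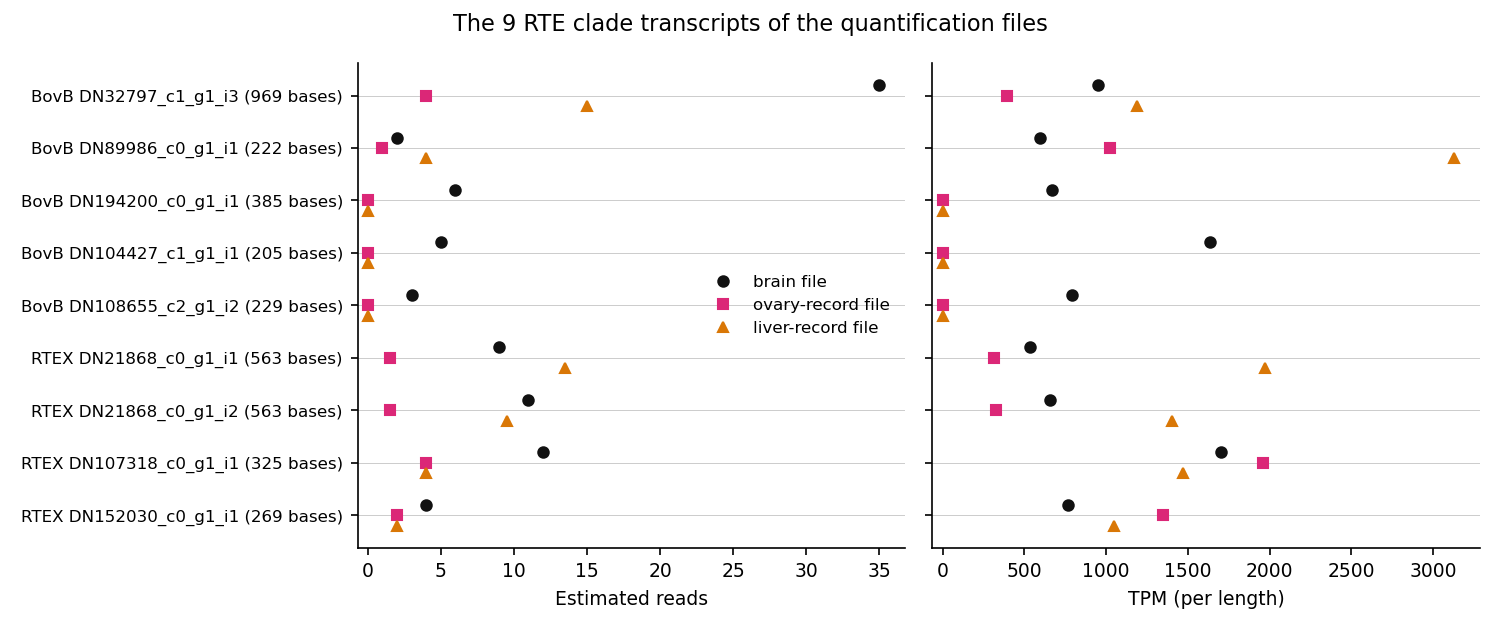
Estimated reads (left) and TPM (right) of the 9 RTE clade transcripts of the quantification files in the brain file (circles), the ovary-record file (squares) and the liver-record file (triangles); labels give the subfamily, the assembled transcript and its length. The BovB transcript of 969 bases leads with 35 reads in the brain file, and 3 BovB transcripts have reads there and 0 in both other files. Of all 480 transcripts, 92.7% had reads in the brain file, 54.6% in the ovary-record file and 60.2% in the liver-record file. The share seen in the brain file alone is not given.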

How the data were processed

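Total RNA of 3 tissues of 1 animal was sequenced as 1 non-stranded library each, per the labels' protocols. The authors deposited estimated counts per subfamily, sums of fractional assignments (51.6%, 71.0% and 61.3% of the values of the Brain, Ovary and Liver columns lie within 0.01 of a whole number), and a log2 CPM table. The authors' log2 CPM is not a plain rescaling of these counts: its difference from plain log2 CPM varies by row from -2.67 to 1.78, and is 0.46 to 0.60 in the Brain, -0.80 to -0.55 in the Ovary and -0.026 to 0.51 in the Liver column for the RTE rows, while the mean over the 3 columns lies within 0.11 of 0 for all 27 rows. What it was scaled by the sources used here do not say. The deposited quantification files hold estimated counts and TPM laid out as Salmon writes them, per the file headers. The deposited name table has 1 element name per assembled transcript, and the lengths deposited in the files are in bases and no score. Per the submitters' processing notes Bowtie2 2.3.4.1 was used, with no step stated.

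Columns were assigned by name and files by sample record. Shares have exact Clopper-Pearson 95% intervals, ratios of shares exact conditional binomial ones and ratios of the RTEX to BovB balance exact conditional odds ratio ones, on counts rounded to whole reads (scipy 1.17.1). The sources name no molecular identifiers, so reads are not taken as independent molecules, and intervals and floors (3 reads for a count of 0) cover counting error alone. TMM factors came from edgeR 4.0.16 and median-of-ratios factors from DESeq2 1.42.0, both as scalings without a test. The intervals and the 2-fold rule were tested on simulated counts with counting error alone, at totals near those of the brain and ovary-record files. That test does not cover variation between libraries or the larger, fractional counts of the count table.

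The members, lists and alternatives were chosen with earlier results of these data known, and the balance of RTEX and BovB and the nearest subfamilies in the deposited log2 CPM were added after seeing the files. Named were all 3 subfamilies, the 5 RTE transcripts with most reads in each library, the longest one, the components with most reads and the 3 nearest subfamilies. Names of the other transcripts, all 9 being members, and of the largest components of the name table were added afterwards. Cell type markers could not be checked, because the files name transposable elements, and sequences of the assembly were not used here.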

Additional observations from a re-analysis of the deposited data

How the results depend on the processing

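Most directions between libraries changed under some scaling. In both pairs with liver, RTEX and the row named RTE, the latter on few reads, kept theirs under all 5 alternatives. For brain over ovary, the log2 ratio of the clade was -0.91 with all reads. It turned to 0.47 outside SINE3, 0.20 of LINE reads, 0.11 with TMM factors and 0.18 in the deposited log2 CPM, and was -0.031 with median-of-ratios factors. RTEX turned to 0.35, 0.084 and 0.13 outside SINE3, of LINE reads and in the deposited log2 CPM. BovB turned under all 5 alternatives. It became 0.62 outside SINE3, 0.36 of LINE reads, 0.27 with TMM factors, 0.12 with median-of-ratios factors and 0.25 in the deposited log2 CPM. The row named RTE turned to 0.032 outside SINE3 and 0.012 in the deposited log2 CPM. For brain over liver, the clade's -1.02 with all reads became -0.14 outside SINE3, -1.47 with TMM factors, -1.43 with median-of-ratios factors and -0.48 in the deposited log2 CPM, and turned to 0.050 of LINE reads. BovB turned to -0.31 with TMM and -0.27 with median-of-ratios factors. For ovary over liver, the clade's -0.10 became -0.61 outside SINE3 and -0.15 of LINE reads. It was -1.58 with TMM factors, -1.39 with median-of-ratios factors and -0.67 in the deposited log2 CPM. In this pair BovB turned to -0.57 with TMM and -0.39 with median-of-ratios factors. SINE3 itself shifts every row by 1.38, 0.87 and -0.51 in the 3 pairs when left out.

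The number of members past the rule moved as well. The 2 lower in brain than ovary became 0 under all 5 other scalings, and were 3 at a 1.5-fold limit and 2 with no minimum of reads. The share of all subfamilies at these last settings is not given here, and it was already 53.6% lower at the 2-fold limit. In brain over liver, 2 were higher outside SINE3 and of LINE reads in place of 0, and the 1 lower became 0 there and in the deposited log2 CPM. In ovary over liver, the 1 higher became 0 with TMM, median-of-ratios factors and the deposited log2 CPM and 2 at a 1.5-fold limit, and 1 was lower outside SINE3, with TMM and median-of-ratios factors and in the deposited log2 CPM, in place of 0. For the balance of RTEX and BovB, which the other scalings cannot move, log2 ratios of -0.27, -1.74 and -1.46 became -0.11, -1.47 and -1.36 in the deposited log2 CPM.

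In the files, the clade's log2 ratio of 0.23 for brain over liver became -0.30 as TPM. By TPM 1 transcript passed 2-fold as higher in brain over ovary and 2 as lower in brain over liver, and as components 1 was lower in ovary over liver, in place of 0. With at least 5 reads, the ovary-record file had 0 of the 9 transcripts and the liver-record file 3, in place of 6 each. The brain file had 6 in place of 9. Of all 480 transcripts, 92 had at least 5 reads in the ovary-record file, 118 in the liver-record file and 323 in the brain file. Why the other values moved was not tested. Depth limits the files, where 9 transcripts share 149 reads. No paired analysis was possible because each tissue has 1 library.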
